A study of Mus musculus with 12 samples.

Results

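The 9 genes described here encode the enzymes that make serine from glucose and pass its carbon on to folate, and were taken by name from the deposited expression tables, where all 9 were found among 24343 genes. Phgdh, Psat1 and Psph form the serine synthesis pathway. Shmt1 and Shmt2 split serine into glycine and a one-carbon unit carried by folate. Mthfd1 handles that unit in the cytosol, and Mthfd2, Mthfd1l and Aldh1l2 handle it in mitochondria. The genes were measured by RNA-seq in HT22 cells, an immortalized mouse hippocampal line grown in medium with 10% fetal bovine serum, so that every library comes from a single cell line. The cells received liposome-delivered control siRNA (siControl) or siRNA against Ncoa4 (siNCOA4), the receptor that delivers ferritin to lysosomes so that its iron is released. Each siRNA was used at normal iron or with 100 µM of the iron chelator deferoxamine (DFO) for 24 h, which gave the 4 groups siControl, siNCOA4, siControl+DFO and siNCOA4+DFO with 3 biological replicates each. The labels call the replicates biological and say no more of their origin, so p-values measure the spread between these libraries. The values are FPKM, a level scaled for transcript length and library size.

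Serine is built in the cytosol from the glycolytic intermediate 3-phosphoglycerate: Phgdh oxidizes it, Psat1 transfers an amino group from glutamate, and Psph removes the phosphate. In most proliferating cells the mitochondrial branch (Shmt2, Mthfd2 and Mthfd1l) oxidizes the one-carbon unit to formate, which leaves for the cytosol, where Mthfd1 uses it for purine and thymidylate synthesis. Several of these genes are known targets of ATF4, the transcription factor of the integrated stress response.

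On the GRCm38 assembly with GENCODE M21 annotation, Phgdh lay at chr3:98313170-98339990, Psat1 at chr19:15904678-15947337, Psph at chr5:129765558-129787449, Shmt1 at chr11:60788104-60811718, Shmt2 at chr10:127517123-127522444, Mthfd2 at chr6:83305691-83325908 and Aldh1l2 at chr10:83487450-83534140, all on the minus strand. Mthfd1 at chr12:76255298-76319803 and Mthfd1l at chr10:3973118-4167081 lay on the plus strand. All 9 are protein-coding genes on separate loci, and each value covers a whole gene.

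Because most of the genes moved together with DFO, their promoters were searched for elements of stress-responsive transcription factors. RefSeq promoters (GRCm38.p6, 250 bases before to 50 after the transcription start) were found for 8 of the 9 genes and not for Aldh1l2, and both strands were read. The CEBP-ATF4 composite TGATGNAA was in the promoters of 0 of the 8 genes and in 3.97% of 32851 promoters. The E-box CACGTG was likewise in 0 of 8, against 7.15% of promoters. The hypoxia response core ACGTG, which is contained in the E-box, occurred in 3 of 8 genes, against 19.6%, and the antioxidant element TGACNNNGC in 2 of 8, against 12.4%. The 30-base stretches with these matches are shown 5′ to 3′ on the strand of the gene, with the match in capitals, which reads as the reverse complement where the element lies on the other strand. The first 4 hold the hypoxia core and the last 2 the antioxidant element. For Psat1 and Psph the RefSeq start lies inside the GENCODE span given above, and so do all their stretches.
Psph, chr5:129787389-129787418: aggccgagaacaACGTGctctctgcggggt
Mthfd1l, chr10:3973024-3973053: aaccaaaagcttCACGTccgctggcccccg
Mthfd1l, chr10:3972825-3972854: ctccCACGTaataaacacttccttctgaag
Psat1, chr19:15924601-15924630: cggtcggggcggCACGTttccttccgggga
Phgdh, chr3:98340003-98340032: gcccggggagGCGGAGTCAgcagagtttaa
Psph, chr5:129787230-129787259: acgcccagttGCGACGTCAttgcgcatctg
A match of these letters is a description of the sequence and not evidence of binding. Shmt2, Mthfd2, Mthfd1 and Shmt1 held none of the 4 motifs in this window.

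The libraries were checked first. Ncoa4 was listed at 6.46, 6.19 and 6.02 FPKM in siControl and at 0.770, 0.952 and 0.891 in siNCOA4, and at 8.70, 8.31 and 7.52 in siControl+DFO against 0.850, 1.29 and 1.57 in siNCOA4+DFO, so the knockdown followed the labels in every library. Relative depth, read from the steps between very low values, spanned 1.52-fold over the 12 libraries. Summed over all genes, FPKM was 615784 to 627826 in siControl and 565558 to 599095 in siNCOA4. It was 676428 to 723077 in siControl+DFO and 691486 to 737313 in siNCOA4+DFO. The main fit did not rescale these sums. Refits used median-of-ratios scaling (factors between 1.004 and 1.013) and quantile normalization. Both kept each enzyme's change with DFO in either siRNA background on the same side of the threshold used below. Quantile normalization altered calls of Psat1 and Aldh1l2 in other comparisons, which are given below. The part of the sums themselves in the changes was not tested. Of 8 neuron markers, only Tubb3 (4.56 to 13.6 FPKM) and Syn1 (4.08 to 6.61 FPKM) were above trace level, and Map2, Rbfox3, Snap25, Syt1, Nefl and Nefm were at or near 0. All 6 fibroblast markers were present. They fell with DFO in control cells (6 of 6), with a summed level of 1589 to 1899 FPKM in siControl, 943 to 1187 in siNCOA4, 399 to 531 in siControl+DFO and 469 to 615 in siNCOA4+DFO, and the part of this shift in the changes below was not tested. Fewer cells with these transcripts and less of them per cell cannot be told apart in such bulk samples.

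Replicate 3 of siNCOA4+DFO stood apart from its group. It had the lowest relative depth of the 12 libraries (0.928 of that of siControl replicate 1) and the lowest median correlation within its group (0.930). The part of depth in its values was not tested. Over the 2244 genes past a 2-fold change with DFO in control cells it had made 69.6% of that change, while replicates 1 and 2 had made 85.8% and 83.8%. It was the lowest of its group for 8 of the 9 enzymes, for 12 of 15 genes of ATF4 and its targets and for 10 of 12 S phase genes, and the highest for 6 of 6 fibroblast markers. In other lists it was the lowest for 4 of 10 folate genes, 1 of 7 genes of glycine cleavage and serine use, 4 of 8 methionine cycle and transsulfuration genes and 3 of 6 purine synthesis genes. The share over all genes is not given here. Results of the 9 enzymes that rest on siNCOA4+DFO are therefore also given without this library.

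In siControl cells Psat1 was the most abundant of the 9 transcripts, at 268 ± 6.41 FPKM (SD, n = 3), which placed it 246th of 13865 genes above 0. Phgdh followed at 118 ± 8.11 FPKM, Shmt2 at 98.1 ± 2.66 and Mthfd2 at 59.8 ± 3.59, and the library values of these 4 genes did not overlap. Psph (46.1 ± 10.2), Aldh1l2 (45.4 ± 4.30) and Mthfd1l (44.0 ± 4.62) could not be ordered, since their libraries overlapped, and Mthfd1 (36.5 ± 0.431) lay within the range of Psph. Shmt1, the cytosolic hydroxymethyltransferase, was the lowest at 16.4 ± 1.24 FPKM. With DFO the order changed at the top. Shmt2 reached 195 ± 10.1 FPKM in siControl+DFO and overlapped with Psat1 at 194 ± 6.04, and Aldh1l2 (111 ± 5.75) overlapped with Mthfd2 (112 ± 4.61). In siNCOA4 the order matched siControl, with Aldh1l2, Mthfd1l and Mthfd1 each overlapping the next. In siNCOA4+DFO, Psat1 was alone at the top at 216 ± 1.05, and Shmt2 (138 ± 20.2), Phgdh (102 ± 13.8) and Mthfd2 (98.9 ± 13.8) overlapped in sequence, as did Aldh1l2 and Psph below them.

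**Figure D1:**
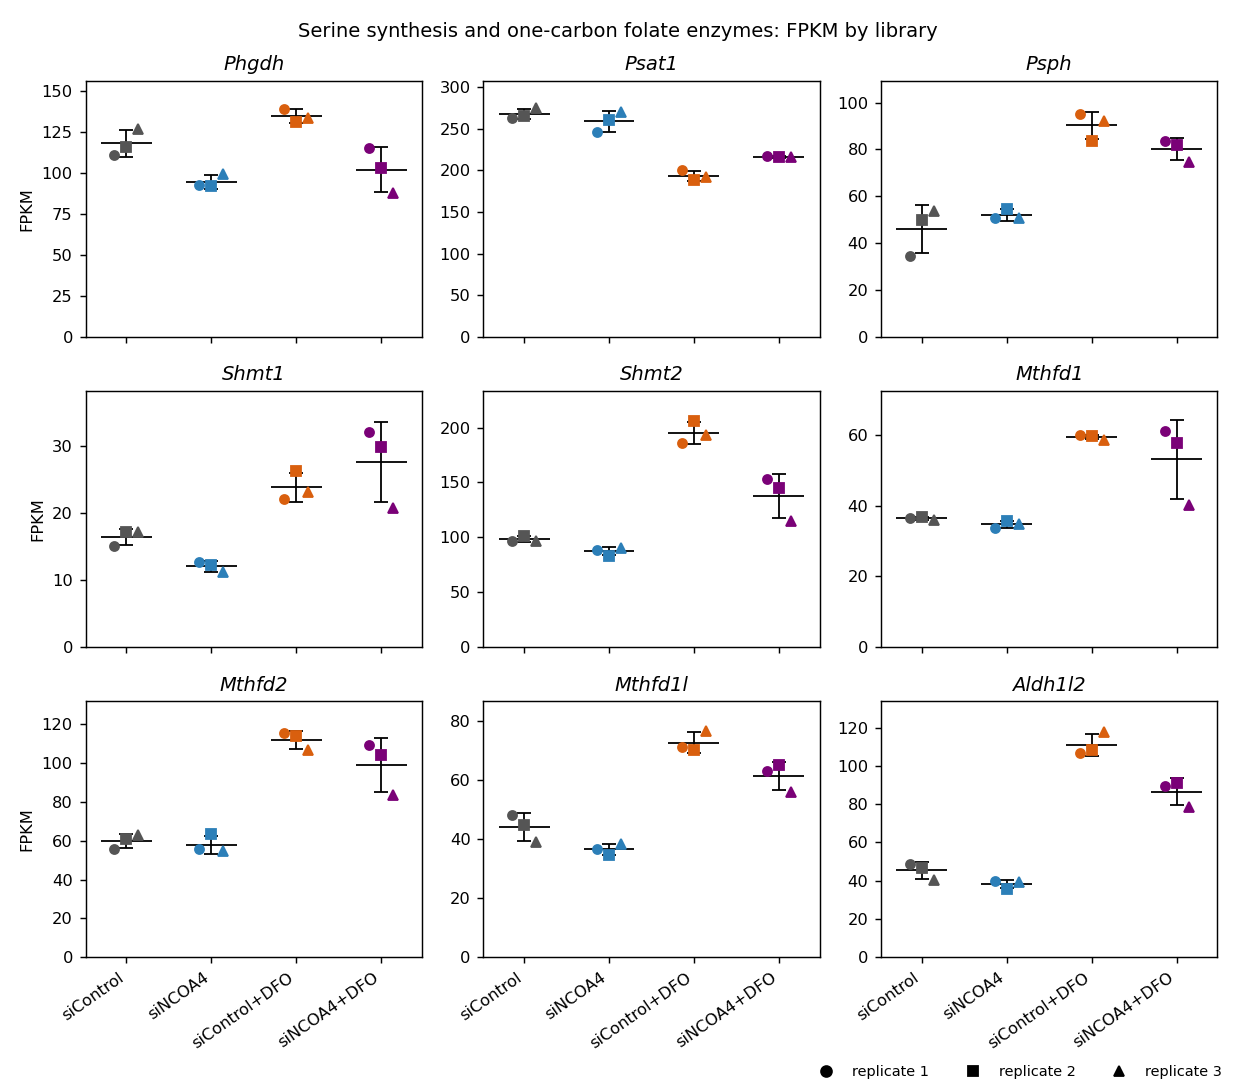
FPKM of each of the 9 enzymes (1 panel per gene, vertical axis from 0) in the 12 libraries, grouped on the horizontal axis, with circles, squares and triangles for replicates 1, 2 and 3 and black lines for the mean and SD of 3 libraries. The DFO groups stand above the untreated groups for 7 genes, Psat1 stands below them, and replicate 3 of siNCOA4+DFO (purple triangles) is the lowest of its group for 8 of 9 genes.

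DFO in control siRNA cells raised 7 of the 9 transcripts and lowered 1, at a Benjamini-Hochberg adjusted p below 0.05 in limma. Over all 11924 genes tested, 27.7% were higher and 25.7% lower by the same rule. The median log2 change of the 9 genes was 0.72, against -0.01 over all genes. Aldh1l2 alone was above a 2-fold change, which 11.1% of all genes passed in the higher direction. The 4 mitochondrial enzymes summed to 247 ± 7.57 FPKM in siControl and to 490 ± 9.63 in siControl+DFO, and the cytosolic pair Shmt1 and Mthfd1 to 52.9 ± 1.27 and 83.2 ± 2.30. The 3 serine synthesis enzymes summed to 432 ± 23.6 and 418 ± 15.5, within the spread of the libraries.

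The serine synthesis enzymes did not move as a unit. Phgdh, the first and committed step of the pathway, was at 111, 116 and 127 FPKM in siControl and at 139, 131 and 133 in siControl+DFO. The groups did not overlap, but the log2 change of 0.19 ± 0.09 (SE) did not pass (limma, adjusted p = 0.103), and it passed without replicate 3 of siNCOA4+DFO, which enters through the shared estimate of spread (adjusted p = 0.0401). Psat1, the aminotransferase, was at 263, 265 and 275 FPKM in siControl and at 200.3, 189 and 192 in siControl+DFO. It fell by 0.47 ± 0.06 on the log2 scale (adjusted p = 5.98e-05) and was the only enzyme of the 9 that was lower with DFO. Psph, the phosphatase that completes serine synthesis, was at 34.5, 49.9 and 53.9 FPKM in siControl and at 94.9, 83.7 and 92.3 with DFO. It rose by 0.99 ± 0.13 on the log2 scale (adjusted p = 5.70e-05), from the most variable baseline of the 9. The ratio of Psat1 to Psph within a library accordingly went from between 5.11 and 7.63 in siControl to between 2.08 and 2.25 in siControl+DFO. The ratio of Psat1 to Phgdh went from between 2.17 and 2.37 to 1.44 in each of the 3 DFO libraries.

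Both serine hydroxymethyltransferases rose with DFO in control cells, the mitochondrial one more. Shmt2 was at 97.0, 101 and 96.3 FPKM in siControl and at 186, 206 and 193 in siControl+DFO, a log2 change of 0.99 ± 0.10 (adjusted p = 3.96e-06). Shmt1 was at 15.0, 17.1 and 17.2 FPKM in siControl and at 22.0, 26.2 and 23.2 with DFO, a log2 change of 0.53 ± 0.14 (adjusted p = 0.00788). Neither gene had overlapping groups, and the share of all genes with such groups is not given here. The Shmt2 to Shmt1 ratio was between 5.60 and 6.47 in siControl and between 7.85 and 8.45 in siControl+DFO.

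The folate enzymes rose with DFO on both sides of the mitochondrial membrane. Mthfd1, the trifunctional cytosolic enzyme, was at 36.5, 36.9 and 36.0 FPKM in siControl and at 59.9, 59.7 and 58.7 in siControl+DFO (log2 change 0.70 ± 0.12, adjusted p = 0.000404). Mthfd2, the mitochondrial dehydrogenase and cyclohydrolase, was at 55.9, 60.7 and 62.9 FPKM and at 115, 114 and 107 (0.90 ± 0.10, adjusted p = 1.19e-05). Mthfd1l, which releases formate in mitochondria, was at 48.2, 44.7 and 39.0 FPKM and at 71.0, 70.0 and 76.5 (0.72 ± 0.09, adjusted p = 2.88e-05). In each of the 3 genes the lowest DFO library stood above the highest untreated one, and the share of all genes for which this held is not given here. Aldh1l2, the mitochondrial 10-formyltetrahydrofolate dehydrogenase that oxidizes the one-carbon unit to carbon dioxide, changed most. It was at 48.9, 46.6 and 40.6 FPKM in siControl and at 107, 108 and 118 in siControl+DFO, a log2 change of 1.29 ± 0.09 (2.45-fold, adjusted p = 2.18e-07).

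DFO in siNCOA4 cells, a comparison that shares no library with the one in control cells, gave the same 7 rises and the same fall. By this rule 23.1% of all genes were higher and 19.6% lower. The 7 enzymes that rose in both comparisons stand against 19.6% of all genes that rose in both, and the fall of Psat1 against 15.7% that fell in both. In siNCOA4 and siNCOA4+DFO libraries, Aldh1l2 went from 39.9, 35.8 and 39.3 FPKM to 89.7, 91.3 and 78.5 (log2 change 1.17 ± 0.09, adjusted p = 1.11e-06). Shmt1 went from 12.6, 12.3 and 11.1 FPKM to 32.1, 29.8 and 20.8 (1.17 ± 0.14, adjusted p = 4.49e-05). These 2 genes passed a 2-fold change, which 7.59% of all genes did in the higher direction. Mthfd2 (0.76 ± 0.10), Mthfd1l (0.74 ± 0.09), Shmt2 (0.65 ± 0.10), Psph (0.62 ± 0.13) and Mthfd1 (0.59 ± 0.12) rose on the log2 scale, with adjusted p-values between 3.93e-05 and 0.00264. Psat1 went from 246, 261 and 270 FPKM to 218, 216 and 216 and fell by 0.26 ± 0.06 on the log2 scale (adjusted p = 0.00595). Phgdh went from 92.3, 91.7 and 99.0 FPKM to 115, 103 and 87.6, with overlapping groups (0.10 ± 0.09, adjusted p = 0.405). Without replicate 3 of siNCOA4+DFO the same 8 genes passed, with Shmt1 at 1.36 ± 0.11 and Aldh1l2 at 1.24 ± 0.09.

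**Figure D2:**
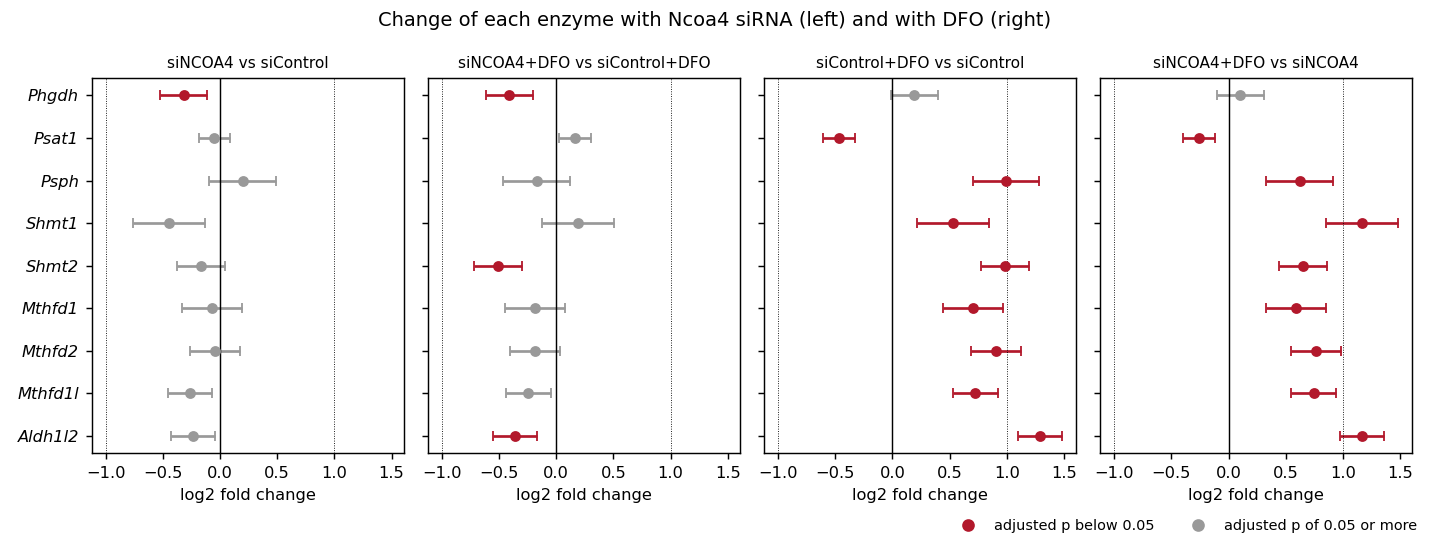
Log2 fold change of each enzyme (points) with its 95% confidence interval (bars) from limma, for Ncoa4 siRNA without and with DFO (left 2 panels) and for DFO in siControl and siNCOA4 cells (right 2 panels), with dotted lines at a 2-fold change. Red marks an adjusted p below 0.05: 1 and 3 genes with Ncoa4 siRNA, all lower, and 8 genes with DFO in either siRNA background, with Psat1 alone on the lower side.

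Ncoa4 siRNA at normal iron left 8 of the 9 transcripts short of the threshold. Phgdh alone passed, in the lower direction. By this rule 7.21% of all genes were lower and 4.52% higher. It was at 92.3, 91.7 and 99.0 FPKM in siNCOA4, below the 111 to 127 of siControl, and fell by 0.32 ± 0.09 on the log2 scale (limma, adjusted p = 0.0452). This call was lost without a filter on low values (adjusted p = 0.0673), without the mean-variance trend (0.0824), with a term for the replicate number (0.0751) and when any of 10 of the 12 libraries was left out (0.0553 to 0.138), while its log2 change lay between -0.36 and -0.27. Shmt1 was at 12.6, 12.3 and 11.1 FPKM, below the 15.0 to 17.2 of siControl, with a log2 change of -0.45 ± 0.14 (adjusted p = 0.066) that passed without replicate 3 of siNCOA4+DFO (adjusted p = 0.0104). Mthfd1l (-0.26 ± 0.09, adjusted p = 0.0809) and Aldh1l2 (-0.24 ± 0.09, adjusted p = 0.106) were likewise below siControl in all 3 libraries without passing, as were Shmt2, at 83.2 to 90.3 FPKM against 96.3 to 101, and Mthfd1, at 33.7 to 35.6 against 36.0 to 36.9. These 2 and the remaining 3 log2 changes lay between -0.17 for Shmt2 and 0.20 for Psph, and the 95% interval of Psat1 ran from -0.19 to 0.09. The share of all genes with groups that did not overlap is not given here. The separation of these enzymes from siControl therefore cannot be set against that of other genes.

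Under DFO, Ncoa4 siRNA lowered 3 of the 9 transcripts and raised 0, while 10.2% of all genes were lower and 6.22% higher. In the paper, neither treatment alone affected viability, while both together reduced it and changed the shape of the cells. The part of this state in the values of siNCOA4+DFO was not tested. Shmt2 was at 153, 145 and 115 FPKM in siNCOA4+DFO, below the 186 to 206 of siControl+DFO (log2 change -0.51 ± 0.10, adjusted p = 0.00453). Phgdh was at 115, 103 and 87.6 FPKM, below 131 to 139 (-0.41 ± 0.09, adjusted p = 0.0117). Aldh1l2 was at 89.7, 91.3 and 78.5 FPKM, below 107 to 118 (-0.36 ± 0.09, adjusted p = 0.0169). The fall of Shmt2 passed without replicate 3 (-0.39 ± 0.07, adjusted p = 0.00668), as did that of Phgdh (-0.31 ± 0.08, adjusted p = 0.0335), but that of Aldh1l2 did not (-0.29 ± 0.09, adjusted p = 0.0607), nor did it pass with quantile normalization (-0.21, adjusted p = 0.14). Fitted on these 6 libraries alone, Phgdh missed the threshold (adjusted p = 0.0512). Psat1 moved the other way in value, at 218, 216 and 216 FPKM against 189 to 200.3 (0.16 ± 0.06, adjusted p = 0.103), and passed only with quantile normalization (0.34, adjusted p = 0.00891). Shmt1 was at 32.1, 29.8 and 20.8 FPKM against 22.0 to 26.2, with 2 libraries above and replicate 3 below the whole siControl+DFO range. Its log2 change was 0.19 ± 0.14 (adjusted p = 0.398) with all libraries and 0.38 ± 0.11 (adjusted p = 0.042) without replicate 3. Mthfd1 showed the same dependence, with 61.2, 57.8 and 40.3 FPKM against 58.7 to 59.9 and a log2 change of -0.19 ± 0.12 that became 0.00076 ± 0.06 without that library. Psph at 83.6, 81.9 and 74.7 FPKM against 83.7 to 94.9, Mthfd1l at 63.1, 64.9 and 55.8 against 70.0 to 76.5 and Mthfd2 at 109, 104 and 83.2 against 107 to 115 were lower in value and did not pass.

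The test of whether the effect of Ncoa4 siRNA differed with and without DFO, which is also the test of whether DFO acted differently in the 2 siRNA backgrounds, called 0 of the 9 enzymes in limma at an adjusted p below 0.05, and 2.1% of all genes. At an unadjusted p below 0.05, 3 enzymes passed, but the share of all genes at that rule is not given here, so this count carries no weight. Shmt1 had the largest difference, 0.64 ± 0.20 on the log2 scale (adjusted p = 0.122): DFO changed it by 0.53 in siControl and by 1.17 in siNCOA4. Without replicate 3 of siNCOA4+DFO the difference was 0.83 ± 0.14 (adjusted p = 0.0207), and over the other alternatives the adjusted p lay between 0.0957 and 0.237. Shmt2 pointed the other way (-0.34 ± 0.14, adjusted p = 0.208), as did Psph (-0.37 ± 0.19, adjusted p = 0.333), and Psat1 differed by 0.21 ± 0.09 (adjusted p = 0.24). Both hydroxymethyltransferases rose with DFO in siNCOA4, and the Shmt2 to Shmt1 ratio was between 6.79 and 8.12 in siNCOA4 and between 4.77 and 5.52 in siNCOA4+DFO, a fall where control cells had gone from 5.60 to 6.47 up to 7.85 to 8.45. Replicate 3 was at 5.52 and the other libraries of siNCOA4+DFO at 4.77 and 4.86, all below every library of the other groups. These ratios were not tested.

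**Figure D3:**
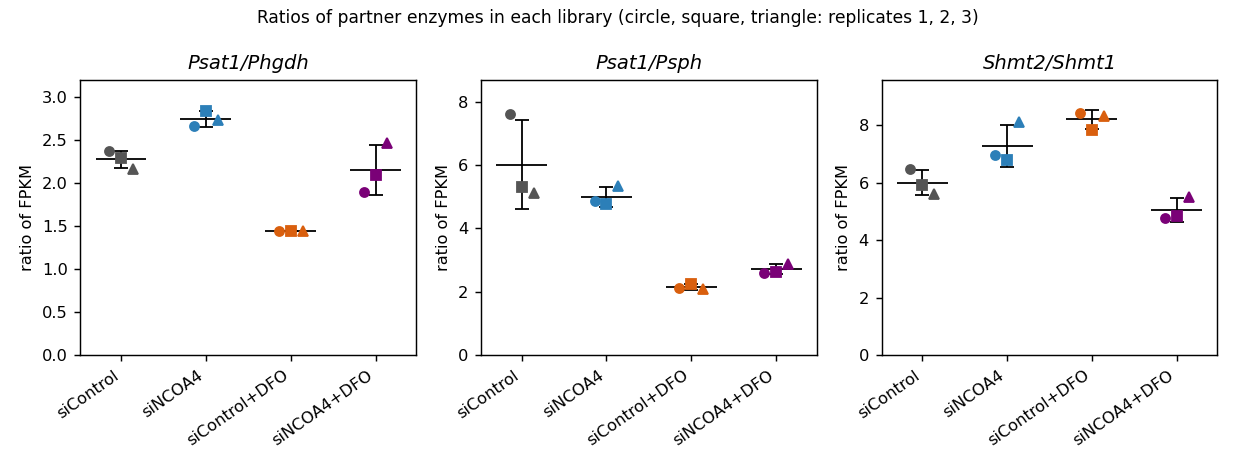
FPKM ratio of Psat1 to Phgdh, Psat1 to Psph and Shmt2 to Shmt1 (vertical axes from 0) in each of the 12 libraries by group, with black lines for the mean and SD of 3 libraries. The Shmt2 to Shmt1 ratio is lowest in siNCOA4+DFO (4.77 to 5.52) and overlaps at the top between siNCOA4 (6.79 to 8.12) and siControl+DFO (7.85 to 8.45), and the Psat1 to Phgdh ratio is 1.44 in every siControl+DFO library.

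Cells with both treatments differed from siControl cells in 8 of the 9 transcripts, 7 higher and 1 lower, beside 25.4% of all genes higher and 23.4% lower. The largest rise was that of Aldh1l2 (0.93 ± 0.09 on the log2 scale, adjusted p = 4.35e-06), followed by Psph (0.82 ± 0.13), Shmt1 (0.72 ± 0.14), Mthfd2 (0.72 ± 0.10), Mthfd1 (0.52 ± 0.12), Mthfd1l (0.48 ± 0.09) and Shmt2 (0.48 ± 0.10), with adjusted p-values up to 0.00376. Without replicate 3 of siNCOA4+DFO the same 8 passed and the order changed, with Shmt1 at 0.91 ± 0.11 above Psph at 0.87 ± 0.15, Mthfd1 at 0.70 ± 0.06 and Shmt2 at 0.60 ± 0.07 above Mthfd1l at 0.55 ± 0.09, and the median of the 9 went from 0.52 to 0.70. No enzyme passed a 2-fold change here, which 9.24% of all genes did in the higher direction. Psat1 fell by 0.31 ± 0.06 on the log2 scale (adjusted p = 0.00163), a call that quantile normalization ended (-0.13, adjusted p = 0.158). Phgdh was at 115, 103 and 87.6 FPKM against 111 to 127 (-0.22 ± 0.09, adjusted p = 0.0726). This comparison shares its siControl libraries with the comparisons of the single treatments.

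Of the 15 genes of the ATF4 list, Atf3 reached the filter on low values only in libraries with DFO, so its rise followed from the filter. The other 14 rose with DFO in control cells, 14 of 14, with a median log2 change of 1.85. Atf4 itself rose from 231, 264 and 272 FPKM to 532, 527 and 521 (1.04 ± 0.10, adjusted p = 2.34e-06), and reached 486, 439 and 379 in siNCOA4+DFO. Large rises were those of Ppp1r15a, which encodes the phosphatase subunit that restores translation, from between 6.51 and 8.36 FPKM to between 268 and 348 (log2 change 5.44 ± 0.23), and of Slc7a11, the cystine transporter, from between 1.20 and 1.55 to between 16.8 and 18.4 (3.59 ± 0.13). Atf3 was listed at 0 in the 6 libraries without DFO and at 3.37, 1.43 and 2.58 FPKM in siControl+DFO. The 7 risers among the 9 enzymes, between 0.53 and 1.29, lay below the list median. In siNCOA4+DFO against siControl these 14 rose as well, with a median of 1.68. Ncoa4 siRNA alone raised Slc7a11 (1.29 ± 0.13, adjusted p = 8.70e-05) and Nupr1 (0.93 ± 0.14, adjusted p = 0.00116) and lowered Cebpb (-0.48 ± 0.13, adjusted p = 0.0294), while Atf4 was at 230.3, 239.9 and 239.6 FPKM (-0.11 ± 0.10, adjusted p = 0.515).

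Other genes of the folate system moved in both directions. Of 13 listed genes of the folate cycle and of folate handling, 10 were tested, and with DFO in control cells 1 rose and 4 fell, with a median log2 change of 0.016. Aldh1l1, the cytosolic counterpart of Aldh1l2, was at 0.334, 0.354 and 0.285 FPKM in siControl, at 0.851, 0.793 and 0.789 in siNCOA4, at 0.839, 0.535 and 0.662 in siControl+DFO and at 2.40, 2.68 and 2.40 in siNCOA4+DFO. All its siControl values lay below the filter minimum of 0.5 FPKM, so it entered the test only through treated libraries. This selection favours a rise against siControl, and the 1 rise counted above is that of Aldh1l1. In value it was higher with either treatment and highest with both (2.61 ± 0.27 on the log2 scale against siControl), at a level far below that of Aldh1l2. Mtfmt, which uses formyl folate for mitochondrial initiator tRNA (-1.24 ± 0.25), Fpgs, which retains folate in cells (-0.97 ± 0.19), and Mthfd2l, the paralog of Mthfd2 (-0.84 ± 0.22), fell with DFO in control cells. Slc46a1, the proton-coupled folate transporter, was at 1.07, 0.996 and 1.83 FPKM in siControl and at 0, 0.143 and 0.152 in siControl+DFO. Slc19a1, the reduced folate carrier, fell with Ncoa4 siRNA at normal iron from 5.79, 5.20 and 5.17 FPKM to 2.72, 2.82 and 2.53 (-0.98 ± 0.13, adjusted p = 0.000618). Mthfs was listed at 0 in 2 libraries of siNCOA4+DFO and between 0.524 and 1.66 FPKM in siControl, and its fall in that comparison (adjusted p = 0.0321) did not pass without replicate 3.

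Of the genes that take up or use serine and glycine, 7 of 9 were tested, and with DFO in control cells 2 rose and 3 fell. Gldc, the decarboxylase of the glycine cleavage system, was at or near 0 in all libraries, and its partner Gcsh went from 40.9, 40.3 and 44.6 FPKM to 25.1, 18.5 and 22.2 (log2 change -0.94 ± 0.13, adjusted p = 4.92e-05). Dld, the shared lipoamide dehydrogenase, rose (0.63 ± 0.08). Sfxn1, the mitochondrial serine transporter, fell by 0.70 ± 0.13 and its relative Sfxn3 by 0.97 ± 0.09 on the log2 scale, so that the carriers and Shmt2 moved in opposite directions. Sdsl, listed at 0.263 to 1.71 FPKM in siControl, rose (1.39 ± 0.45). In siNCOA4+DFO against siControl the same counts of 2 and 3 were found, and Sfxn3 had fallen by 0.32 ± 0.09, and with Ncoa4 siRNA alone 0 of the 7 passed.

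The methionine cycle and transsulfuration genes, 8 of 13 tested, gave 4 rises and 1 fall with DFO in control cells. Cth, the last enzyme on the way to cysteine, rose from 9.87, 11.6 and 11.6 FPKM to 56.1, 51.8 and 56.9 (log2 change 2.31 ± 0.09, 4.95-fold, adjusted p = 3.83e-09), while Cbs, the step before it, was listed at or near 0 throughout. Methionine synthase Mtr (0.45 ± 0.15) and its reductase Mtrr (0.62 ± 0.19) rose, and Mat2b, the regulatory subunit of S-adenosylmethionine synthetase, fell (-0.91 ± 0.17). Mat2a, the catalytic subunit, rose with DFO in control cells (0.23 ± 0.07) and with both treatments (0.60 ± 0.07). Ahcy (-0.42 ± 0.12) and Ahcyl1 (-0.26 ± 0.06) fell with both treatments. Ncoa4 siRNA alone raised Cth (0.59 ± 0.09, adjusted p = 0.00199) and lowered Ahcyl1 (-0.23 ± 0.06, adjusted p = 0.0319).

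None of the purine synthesis enzymes, whose pathway takes up one-carbon units in the cytosol, rose with DFO. In control cells 0 of 6 rose and 3 fell, namely Atic (-0.54 ± 0.10), Paics (-0.45 ± 0.08) and Adsl (-0.41 ± 0.10), with a list median of -0.32. With both treatments 5 of 6 were lower than in siControl, among them Gart (-0.54 ± 0.13), and Gart was the single one lowered by Ncoa4 siRNA alone (-0.48 ± 0.13, adjusted p = 0.0363). Thymidylate synthase Tyms, the other large user of one-carbon units, was at 15.3, 13.9 and 17.0 FPKM in siControl and at 16.8, 17.2 and 16.6 in siControl+DFO (0.14 ± 0.09, adjusted p = 0.251). Of 12 S phase genes, 5 rose and 3 fell with DFO in control cells, and under DFO Ncoa4 siRNA lowered 7 of 12 (4 of 12 without replicate 3).

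**Figure D4:**
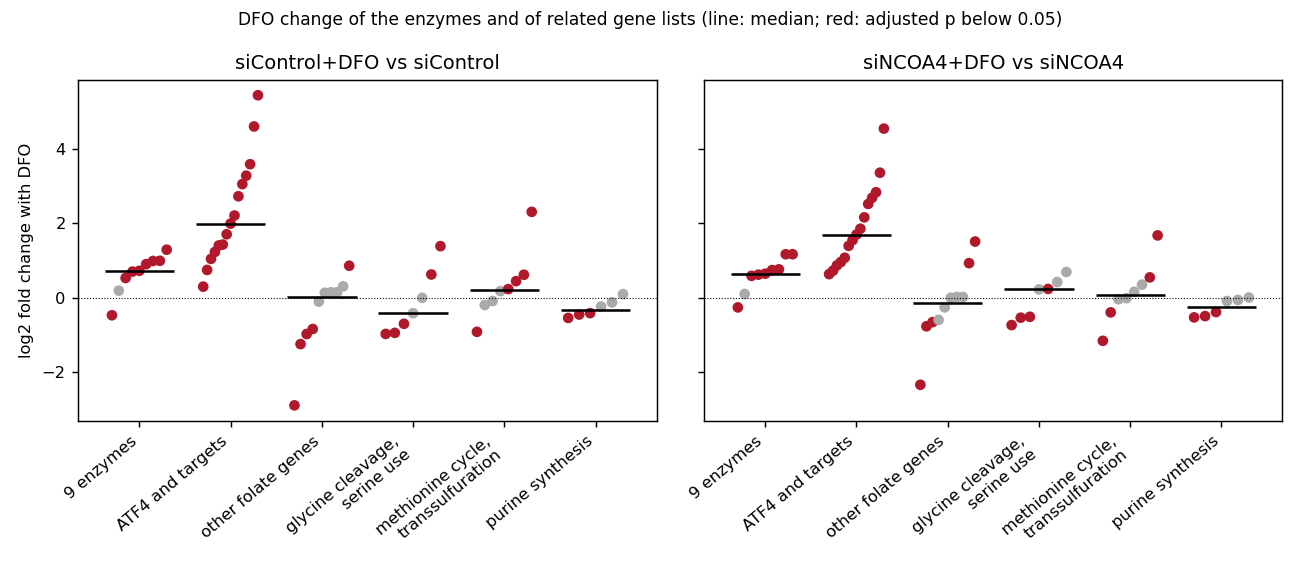
Log2 fold change with DFO (vertical axis) of single genes (points) in siControl cells (left) and siNCOA4 cells (right) for the 9 enzymes and 5 related lists, with the list median as a line and red for an adjusted p below 0.05. In siControl cells the median is 0.72 for the 9 enzymes and -0.32 for purine synthesis. The line for ATF4 and its targets, at 1.99, includes Atf3, which reached the filter on low values only in libraries with DFO. Without Atf3 the median of the other 14 genes is 1.85, and all 14 are red.

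The shape of each profile over the 12 libraries was compared with all other tested genes by the root mean square difference of centred log2 levels, a description that carries no statement on shared function. Mthfd1 and Mthfd2 were the closest pair among the 9 (0.12), with Mthfd2 the 18th nearest of all genes to Mthfd1. Shmt2 and Mthfd1l came next (0.14). Phgdh and Psat1 had no near neighbour among the enzymes: the nearest, Mthfd1 for Phgdh and Phgdh for Psat1, ranked 2688th and 5254th. The 2 nearest genes overall were Ddx21 and Baiap2 for Phgdh, Ppfibp1 and Akap8 for Psat1, Tra2a and Ippk for Psph, Gpnmb and Tor3a for Shmt1, Cdc6 and Yars for Shmt2, Sars and Pwp1 for Mthfd1, Tsr1 and Odc1 for Mthfd2, Optn and Senp2 for Mthfd1l, and Arhgef2 and Tbl2 for Aldh1l2, at distances between 0.06 and 0.15. Yars and Sars encode the tyrosyl- and seryl-tRNA synthetases.

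Some of these transcripts share sequence with other genes. Of the 75-base windows of annotated transcript, 35.8% in Phgdh occurred elsewhere, mostly in Gm7901, which was not analysed here, 12.8% in Aldh1l2, 8.07% in Psph, 2.7% in Shmt1 and 0.236% in Shmt2, and none in the other 4 genes. The shared part of Aldh1l2 belongs to D10Wsu102e, that of Psph to Cct6a and that of Shmt1 to Smcr8, each on the opposite strand, and whether reads were counted by strand is not given in the sources used here. D10Wsu102e lay between 18.0 and 22.5 FPKM in siControl and between 18.0 and 21.1 in siControl+DFO, and between 13.4 and 14.8 in siNCOA4 and between 15.6 and 18.7 in siNCOA4+DFO. Cct6a lay between 171 and 196 FPKM in the libraries without DFO and between 127 and 175 with it, and its part in the Psph values was not tested. Smcr8 lay between 17.4 and 25.1 FPKM in the libraries without DFO and between 48.4 and 82.2 with it, and its part in the Shmt1 values was not tested. Smcr8 lay between 48.4 and 60.9 FPKM in siNCOA4+DFO and between 71.7 and 82.2 in siControl+DFO.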

How the data were processed

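The authors deposited one table of FPKM per library, made from total RNA with the SMARTer Stranded Pico v2 kit. The submitters' processing notes name Trimmomatic 0.33, FastQC, HISAT2 2.1.0, featureCounts, edgeR and the mm10 build; the step that gave the FPKM values is not given in the sources used here. Of 24347 entries per table, 4 that shared a name were left out, and 6929 genes were listed at 0 throughout. The tables give no read counts, so counting error is unknown. Relative depth, estimated from the smallest steps between low values, lay between 0.928 and 1.41 of that of siControl replicate 1.

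The test covered 11924 genes, all 9 enzymes among them, whose FPKM reached 0.5 in 3 or more libraries. It used log2(FPKM + 0.1), a scale that understates changes of low genes, in a means model of 4 groups over all 12 libraries (limma 3.58.1, R 4.3.3, empirical Bayes with a mean-variance trend, with 4.07 prior and 8 residual degrees of freedom). Each comparison was adjusted over all genes by Benjamini-Hochberg. The authors tested counts with edgeR. The procedure was tested on simulated data. Other genes were named by rule: in each list up to 3 rises and 3 falls with the largest change past the threshold with DFO, with both treatments and with siNCOA4 alone, and the 2 nearest profiles of each enzyme. Mthfd2l, Tyms, Gldc and Cbs, and the genes sharing sequence with an enzyme, were named after their values were seen. The enzymes, lists and tests were chosen with earlier results of these data known. The list of the folate cycle was shortened after its values were seen, since 2 of its genes are not reported here; both are left out of its counts and median. Atf3 was set apart from the ATF4 list after its values were seen. Astrocyte, microglia and oligodendrocyte marker lists had 2, 1 and 1 genes above the filter, and the defining markers Aqp4, P2ry12, Mog and Mag were at or near 0. The summed levels of the astrocyte and microglia lists, in siControl nearly all Slc1a3 and Tmem119, were 36.5 to 46.2 and 10.1 to 11.8 FPKM there. They were 2.98 to 5.14 and 0.986 to 1.68 in siControl+DFO, where Slc1a3 was at 2.64 to 4.65 and Tmem119 at 0.407 to 1.29.

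Alternatives were the pseudocount, the filter, scaling, quantile normalization, a replicate term, the compared groups alone, the moderation, and leaving out each library.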

Additional observations from a re-analysis of the deposited data

Results flagged for a closer look

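For 3 genes named beside the enzymes, the change with DFO differed between siNCOA4 and siControl cells by the interaction test in limma (Benjamini-Hochberg adjusted p below 0.05). Nupr1, a stress-induced chromatin protein gene, rose less with DFO in siNCOA4 cells, by a difference of -1.25 on the log2 scale (adjusted p = 0.00971): it was at 33.3, 47.9 and 40.4 FPKM in siControl, 72.3, 74.2 and 83.6 in siNCOA4, 193, 184 and 180.3 in siControl+DFO and 172, 156 and 123 in siNCOA4+DFO. Cth, the cystathionine lyase gene, differed by -0.63 (adjusted p = 0.0354), with 15.7, 18.3 and 16.1 FPKM in siNCOA4 and 56.0, 55.5 and 49.1 in siNCOA4+DFO, and its call was lost without replicate 3 of siNCOA4+DFO (-0.57). Slc46a1, the proton-coupled folate transporter gene, differed by 2.89 (adjusted p = 0.0479), with 0.547, 1.56 and 1.02 FPKM in siNCOA4 and 0.966, 1.19 and 0.772 in siNCOA4+DFO, where siControl+DFO held 0, 0.143 and 0.152. All Slc46a1 values were at 1.83 FPKM or below, and its call was also lost without that library (3.03).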

How the results depend on the processing

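Over 531 values of a single enzyme under alternatives that kept all libraries, 521 kept their direction and side of the threshold, 2 were gained, 6 lost and 2 changed sign. Over 648 values with 1 library left out, the counts were 622, 6, 12 and 8. The number of enzymes past the threshold stayed within 1.5 times its value under every alternative for DFO in either siRNA background, for Ncoa4 siRNA under DFO and for both treatments. With Ncoa4 siRNA alone it was 1, became 0 without a filter on low values and without the trend, became 2 in a fit of the compared groups, and ranged from 0 to 2 with 1 library left out. For the interaction it was 0 and ranged from 0 to 1 with 1 library left out. No pairing of the samples by replicate number was seen (2 of 18 same-numbered pairs correlated above 0.1, and 2 of 12 libraries correlated best with their own number). Such correlations cannot exclude that same-numbered samples were handled together. With the replicate number as a block the count with Ncoa4 siRNA alone was 0, with no other enzyme's call changed.

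Signs changed only among values that did not pass. With quantile normalization these were the interaction of Phgdh (0.0064) and the change of Psat1 with Ncoa4 siRNA (0.098). With 1 library left out, the interaction ranged from -0.18 to 0.015 for Phgdh, from -0.23 to 0.072 for Mthfd1 and from -0.050 to 0.10 for Mthfd1l, and the change of Mthfd1 with Ncoa4 siRNA under DFO from -0.30 to 0.0008. Each upper end but that of Mthfd1l came without replicate 3 of siNCOA4+DFO. The cause of these shifts was not tested. Mthfd1l passed with Ncoa4 siRNA without siControl replicate 3 (-0.35), Phgdh passed with both treatments without siNCOA4+DFO replicate 1 (-0.31), and Aldh1l2 with Ncoa4 siRNA under DFO missed the threshold without siControl+DFO replicate 3 (-0.32). Over all genes, the interaction called 250 and between 76 and 292 with 1 library left out (164 to 282 with all kept), Ncoa4 siRNA called 1399 and between 724 and 1652, and Ncoa4 siRNA under DFO called 1963 and between 1201 and 2100 (1149 to 2031 with all kept). Of the 1963, 37.8% were higher, a share that was 50.6% of the calls with quantile normalization. FPKM gives no read counts, so the smallest change that could be seen in a gene is unknown.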
